A study of Homo sapiens with 9 samples.

Results

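Cultures of the wild-type line H9, which is established and derives from a human embryo, were directed towards early neuroepithelium. The 81 genes described here are the nuclear-encoded subunits of the mitochondrial respiratory chain, measured there as polyadenylated RNA. They were taken by symbol from a table of raw counts for 62710 genes: the protein-coding NDUFA, NDUFB, NDUFC, NDUFS and NDUFV genes, SDHA to SDHD, the UQCR genes, CYC1, the COX4I, COX5, COX6, COX7 and COX8 genes, and the ATP5F1, ATP5M and ATP5P genes, with assembly factors left out. A mean of at least 1 CPM was required, where CPM is a gene's counts scaled to a common library size. Of 90 protein-coding genes that matched, 2 were read-through loci joined to a neighbouring gene and were set aside, and 7 averaged under 1 CPM. Complex I held 36 of the 81, complex II 4, complex III 10, complex IV 14 and complex V 17. NDUFA4 and NDUFA4L2 were placed in complex IV, because NDUFA4 is known as a subunit of that enzyme. Just inside the minimum lay NDUFV2 at 1.57 CPM and NDUFA4L2 at 3.55 CPM, and just outside it lay NDUFA7 at 0.61 CPM.

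All cultures spent 72 h in the pluripotency medium mTeSR1 on Matrigel-coated silicone (PDMS) plates, then 48 h in N2B27 medium with SB431542 and LDN, inhibitors of TGF-beta and BMP signalling that together direct cells to neuroepithelium. For a further 24 h after those 48 h, under the same inhibitors, the plate was bent, either concave or convex, or stayed flat as the control. Each shape had 3 libraries, numbered 1 to 3. The labels do not say whether the 3 libraries of a shape are separate cultures. Every p-value below therefore rests on library-to-library spread that may be technical.

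The chain sits in the inner mitochondrial membrane. Complexes I and II pass electrons from NADH and succinate to ubiquinone, complex III passes them on to cytochrome c, and complex IV gives them to oxygen. Complexes I, III and IV pump protons, and complex V, the ATP synthase, lets them flow back to make ATP. Complex II is encoded by the nucleus alone, while the other complexes join nuclear subunits to a few encoded by mitochondrial DNA. Pluripotent cells are known to lean on glycolysis, and respiration is known to gain weight as they differentiate.

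Nuclear subunit genes share promoter elements that bind NRF1, factors of the ETS family (among them GABPA, also called NRF2) and YY1. RefSeq promoter windows, 250 bases before to 50 after the start on GRCh38.p14, matched 65 of the 81 genes by symbol and were searched on both strands. The letters GCGCATGCG, the core of the NRF1 motif, stood in 10 of the 65 windows (15.4%), against 2.36% of 22199 windows of protein-coding genes and 1.92% of all 35116. The ETS letters CCGGAAG stood in 20 windows (30.8%), against 12.8% and 10.3%. The YY1 letters AAGATGGCG stood in 7 windows (10.8%), against 2.41% and 1.75%. At least 1 of the 3 motifs was present in 30 of 65 windows (46.2%), and in 16.4% of protein-coding windows. By complex, the ETS letters were in 5 of 31 windows of complex I, 2 of 3 of complex II, 3 of 7 of complex III, 5 of 11 of complex IV and 5 of 13 of complex V. The NRF1 letters were in 4, 1, 0, 1 and 4 windows of the same complexes. A match is a description of these letters, not a bound site.

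The stretches below show each match, in capitals, with its neighbouring bases, for some of the genes with a match. NDUFS4, NDUFB7 and COX4I1, also named later, have matches that are not shown, and the windows of NDUFA2 and COX7B held none. COX5B and COX6B1 were among the genes with the smallest p between convex and flat, ATP5MC2 and SDHD among those between library numbers, and NDUFS1 had fold changes near 0. ATP5PF, a peripheral stalk subunit, is shown because its window held all 3 motifs. Each is written 5′ to 3′ on the gene's strand. On the other strand an ETS match reads CTTCCGG and an NRF1 match CGCATGCGC. The NRF1 capitals of SDHD are 2 overlapping matches on opposite strands.
COX5B, ETS, chr2:97646015-97646041, plus strand: aagcccgcccCCGGAAGtccctcctgt
COX5B, ETS, chr2:97646047-97646073, plus strand: cagcttgttcCCGGAAGttttgctgct
COX6B1, ETS, chr19:35648301-35648327, plus strand: cctctctcagCTTCCGGctggtagtag
ATP5MC2, NRF1, chr12:53676106-53676134, minus strand: gcccgggtcaCGCATGCGCtgagccttcc
ATP5PF, NRF1, chr21:25735156-25735184, minus strand: cactcaaagaGCGCATGCGtacagagcaa
ATP5PF, YY1, chr21:25735093-25735121, minus strand: aggcgaagaaAAGATGGCGgaggctgtgc
ATP5PF, ETS, chr21:25735068-25735094, minus strand: gccaggggacCCGGAAGcacttaccct
SDHD, NRF1, chr11:112086753-112086782, plus strand: agctgtgtttGCGCATGCGCgacgggtgtg
SDHD, ETS, chr11:112086786-112086812, plus strand: cgcctctcgaCTTCCGGttcacccagc
NDUFS1, ETS, chr2:206159585-206159611, minus strand: gctggggccaCTTCCGGcggaactgcg

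Library totals ran from 49420082 to 64763412 counts, and 23075 genes were tested, all 81 subunit genes among them. From a list of 5 early neuroepithelial genes, SOX2 ran from 470 to 821 CPM and OTX2 from 257 to 318 CPM. PAX6, of the same list, was low at 1.09 to 7.09 CPM. Pluripotency genes were uneven: POU5F1 ran from 206 to 512 CPM and TDGF1 from 1.11 to 4.72 CPM in libraries numbered 1 and 2 but from 123 to 192 CPM in those numbered 3. In libraries numbered 3 the 4 pluripotency genes summed to 1113 to 1260 CPM, above the 856 to 1032 CPM of the 5 neuroepithelial genes. SOX17, a marker of endoderm, was at 0 in 8 libraries, but the 5 mesoderm and endoderm genes summed to 0.788 to 12 CPM. TFAP2A, of non-neural ectoderm, stayed at or under 0.092 CPM, but its list, with KRT18, KRT19 and GATA3, summed to 178 to 404 CPM. No marker gene was called between plate shapes.

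Complexes IV and V held the most abundant transcripts per length. Divided by transcript length, the median level over the 9 libraries was 128.5 CPM per kb in complex IV, 86 in complex V, 43.3 in complex I, 43.1 in complex III and 16.9 in complex II. COX4I1, the ubiquitous isoform of complex IV subunit 4, led at 641 CPM per kb. It was followed by ATP5F1B, the catalytic beta subunit of the synthase head, at 374, UQCRH, the hinge protein of complex III, at 282, ATP5MC3, a gene for the c ring, at 246, and NDUFS5, an accessory subunit of complex I, at 244 CPM per kb. Also high in their complexes were NDUFB9 (130 CPM per kb), UQCRC1, a core protein of complex III (98.5), and COX7C (208). In complex II, SDHB, the iron-sulfur subunit, stood at 36.9 CPM per kb and SDHD, a membrane anchor, at 29.7. SDHA, which binds the flavin and oxidises succinate, stood at 4.18 and the other anchor, SDHC, at 3.58 CPM per kb over an annotated transcript length of 13566 bases.

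**Figure D1:**
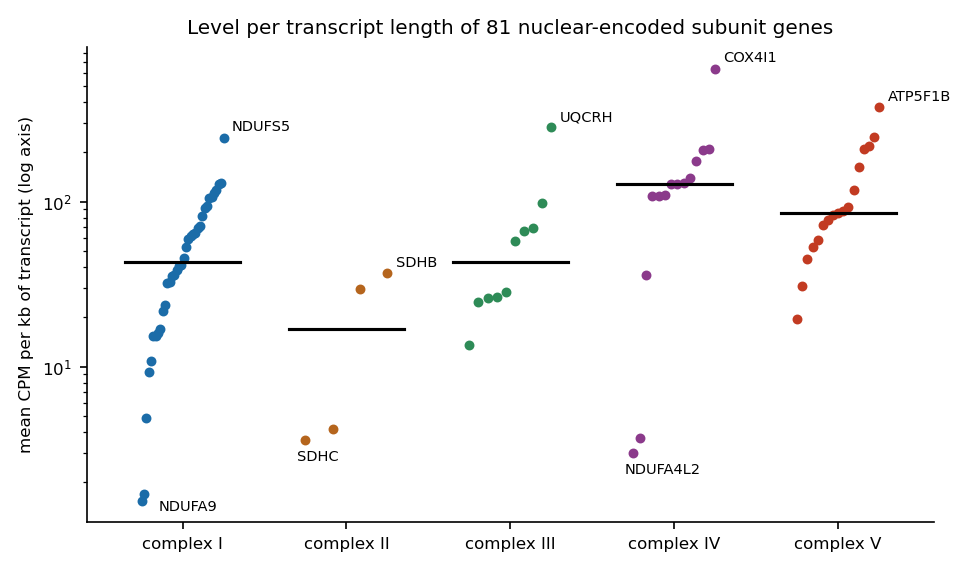
Level of each of 81 subunit genes by complex, as mean CPM over 9 libraries per kb of transcript on a log axis; points are genes and bars are complex medians. COX4I1 at 641 and ATP5F1B at 374 CPM per kb stand highest, and NDUFA9, NDUFV2, SDHC and NDUFA4L2 stand lowest.

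Some genes share sequence or exon positions with other loci, at low and at high levels. NDUFV2, a core flavoprotein subunit of complex I, averaged 1.57 CPM, and its named pseudogene summed to 206% of that value. Of its exon bases, 28.4% overlap another gene on the same strand in GENCODE v29. NDUFA13, an accessory subunit, averaged 4.87 CPM and shares 21% of its exon bases in the same way, NDUFB8 33.8% and COX6B2 30.9%. The largest such share, 34.5%, belongs to COX8A, which averaged 70.5 CPM, while the exons of SDHC, SDHA and NDUFA4L2 overlap none (0%). SDHA and SDHC each have 4 named pseudogenes, however, which sum to 6.23% and 0.25% of the gene's own CPM. UQCRHL, at 13.5 CPM per kb the lowest of complex III, is a near-identical copy of UQCRH. Over the whole set, 50 genes have 189 named pseudogenes, and for 2 of them, NDUFV2 and COX6A1 (14%), the pseudogenes sum to over 10% of the gene's own CPM. How reads in shared sequence were counted is not given in the sources used here, so the levels of these genes are uncertain. NDUFA9, an accessory subunit of complex I, had the lowest level per length at 1.54 CPM per kb, over an annotated length of 8363 bases, and shares 10.6% of its exon bases.

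Where a subunit has a tissue-restricted copy, the common copy carried nearly all of the RNA. COX4I1 averaged 459 CPM and COX4I2, the isoform known from lung and hypoxia, 0.473. COX6A1 averaged 73.8 CPM, and the heart and muscle copy COX6A2 was at 0 in all 9 libraries, which allows up to 0.0438 to 0.0631 CPM in a library (3 counts, counting error only). COX7A2 averaged 91.5 CPM and the muscle copy COX7A1 0.263. COX7B averaged 187.5 CPM and COX7B2 was at 0, while COX8A averaged 70.5 CPM and COX8C 0.0905. COX6B1 averaged 118 CPM beside 6.15 for COX6B2, known from testis. The c ring, whose 3 genes encode the same mature protein, drew 207 CPM from ATP5MC3, 142 from ATP5MC2 and 35.6 from ATP5MC1. Per kb these were 246, 162 and 58.8 CPM.

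A single flat library, flat 2, stood apart in these genes. Over the 81 genes, summed CPM was 7990, 12413 and 7116 in flat libraries 1 to 3, 6254, 5906 and 7423 in the concave ones, and 5941, 6485 and 6095 in the convex ones. Flat 2 stood far above the others, concave 3 lay above flat 3, and all 3 convex libraries lay below all 3 flat ones. Group means were 9173 ± 2840 in flat, 6528 ± 795 in concave and 6174 ± 280 in convex (SD, n = 3). In bulk RNA a smaller share of cells rich in these transcripts and less RNA per cell cannot be told apart. The same order of means held in each of complexes I to V, from 165 ± 8.71, 134 ± 14.7 and 133 ± 7.86 CPM in complex II to 2802 ± 640, 2083 ± 270 and 2005 ± 88.5 CPM in complex V. Complex IV summed to 2480 ± 1011, 1634 ± 195 and 1474 ± 120 CPM.

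**Figure D2:**
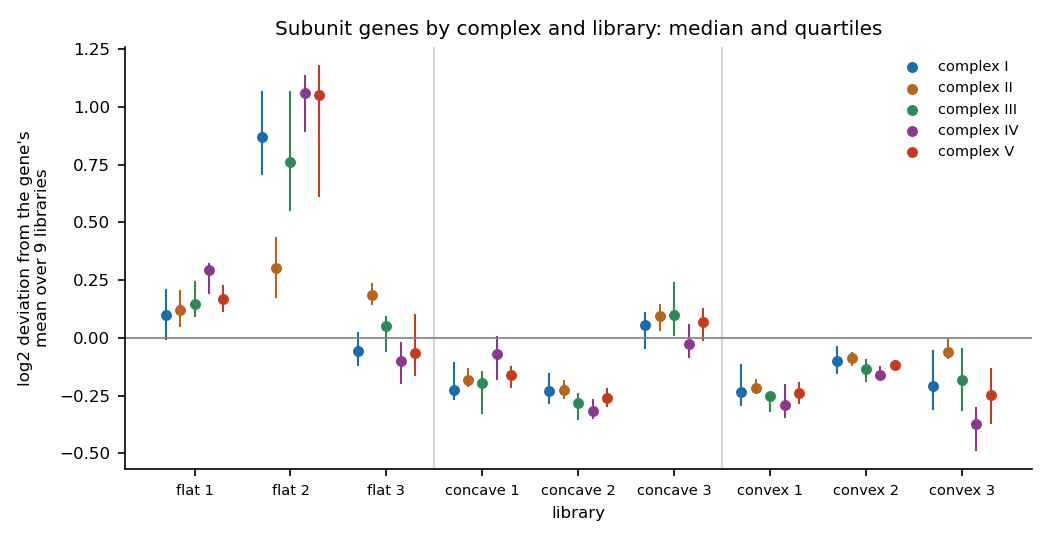
Median (points) and quartiles (lines) over the genes of each complex of the log2 deviation from the gene's own mean over 9 libraries, by library. Flat 2 stands highest for all 5 complexes, at medians from 0.30 in complex II to 1.06 in complex IV, and convex 3 is lowest in complex IV.

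Flat 2 was the highest of the 9 libraries for 73 of 81 genes (90.1%), where 27.7% of all genes tested were highest there. It was the lowest for 3, NDUFA13, NDUFV2 and NDUFS1, where 29.8% of all genes were. Its ratio to the median of the other 8 libraries had a median of 2.1 over the 81 genes, and 46 genes exceeded 2. By complex the median ratio was 2.05 in I, 1.32 in II, 1.88 in III, 2.3 in IV and 2.31 in V. Complex V was highest in flat 2 for 17 of 17 genes, and complex II for 2 of 4. Without flat 2, the range of a gene over the remaining libraries was narrow, with a median of 1.47-fold from lowest to highest.

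The highest ratio belonged to NDUFA4L2, a paralogue of NDUFA4 known as a hypoxia target, at 16.7. Its libraries held 0.635, 7.7 and 0.14 CPM in flat, 19.9, 0.138 and 0.517 in concave, and 2.35, 0.403 and 0.141 in convex. It was high in flat 2 and concave 1 and the groups overlap throughout. UQCR10, a small subunit of complex III, came next at 3.06, with 60.3 CPM in flat 2 and 16.5 to 24.3 elsewhere. NDUFB7, an accessory subunit of complex I, had a ratio of 3.01, and ATP5F1E, the epsilon subunit of the synthase stalk, 2.88. The lowest ratios were 0.449 for NDUFA13, 0.695 for NDUFV2, 0.847 for NDUFS1, the largest core subunit of complex I, and 1.13 for SDHD.

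Transcript length moved with the deviation of flat 2 and, to a smaller extent, of other libraries. Subunit messages are short: the median length of the 81 was 932 bases against 2970 over all protein-coding genes tested, and 44 of the 81 were at most 1000 bases. In flat 2 the Spearman correlation of length with a gene's deviation was −0.47 over the 81 genes and −0.54 over 15523 protein-coding genes, which share the library and are not independent. Over the 15523 genes it was −0.24 in flat 1 and 0.18 in flat 3. It was 0.22, 0.33 and −0.11 in concave 1 to 3 and 0.33, 0.26 and 0.23 in convex 1 to 3. Over the 81 genes it ran, outside flat 2, from −0.22 in flat 1 to 0.43 in convex 3. Subunit genes up to 600 bases deviated by a median of 1.11 on the log2 scale (n = 11), other protein-coding genes of that length by 0.71 (n = 161). Between 600 and 800 bases the medians were 0.96 and 0.83, and between 800 and 1000 bases 0.79 and 0.72. Between 1000 and 1500 bases they were 0.83 and 0.52, between 1500 and 2500 bases 0.59 and 0.24, and over 2500 bases 0.5 (n = 11) and −0.26. The subunit genes thus stood above other genes in all 6 length classes, with 11 to 20 subunit genes in each. However, the other genes were not held to the 1 CPM minimum. With that minimum, 631 other protein-coding genes up to 1000 bases had a median of 0.82, against 1.03 for the 44 subunit genes of that length. The shares of other protein-coding genes up to 1000 bases given here and below are also without that minimum. Among other protein-coding genes up to 1000 bases, flat 2 was the highest library for 66.3%, and among subunit genes of that length for 42 of 44. Flat 2 also had the lowest share of counts from mitochondrial DNA, 5.7%, where the others had 6.57% to 10.5%. The part of length in the results below was not tested beyond a length correction, which gave medians of −0.4 for concave and −0.47 for convex against flat.

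**Figure D3:**
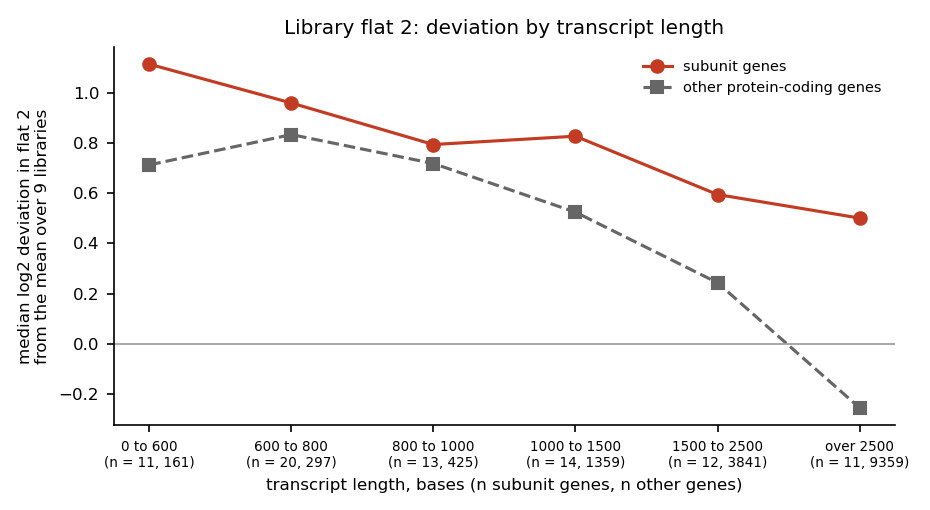
Median log2 deviation of library flat 2 from the mean over 9 libraries, by class of transcript length in bases, for subunit genes (circles) and other protein-coding genes (squares). The medians are 1.11 and 0.71 in the shortest class and 0.5 and −0.26 in the longest. Subunit genes lie above the others in all 6 classes, but the others were not held to the 1 CPM minimum.

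Between concave and flat, 77 of the 81 genes were lower on the concave plate, with a median log2 fold change of −0.53, but no gene passed an adjusted p of 0.05. The share called among 23075 genes was 0 as well, and the median over all genes was 0.014. Other protein-coding genes up to 1000 bases had a median of −0.42, with 716 of 883 lower. The 44 subunit genes of that length had −0.57. Over 1000 bases the medians were 0.01 for 14559 other protein-coding genes and −0.41 for 37 subunit genes. At an unadjusted p under 0.05 were 18.7% of the 883 genes and 25 of the 44. DESeq2 and voom called none of the 81 either. By complex the medians were −0.5 in I, −0.32 in II, −0.5 in III, −0.58 in IV and −0.58 in V. Without flat 2 they were −0.16 in I, −0.23 in III, −0.21 in IV and −0.19 in V. The median of complex II stayed between −0.43 and −0.24 with each library left out, flat 2 among them. At an unadjusted p under 0.05 there were 36 of the 81 genes, 35 of them lower, and 1047 of all genes. The smallest adjusted p of a subunit gene was 0.841. The median was −0.19 without flat 2, and no subunit gene then reached an unadjusted p under 0.05. Leaving out concave 2 also left none, and leaving out concave 1 left 4. With convex 1 or convex 2 left out there were 16 or 19, and with flat 3 left out 66. The count over all genes moved too, from 205 without concave 2 to 4096 without flat 3. The groups did not overlap for 12 genes that were lower on the concave plate (14.8%), where 2.96% of all genes and 6.34% of other protein-coding genes up to 1000 bases were, and for 1 that was higher, where 3.78% of all genes were.

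The 4 genes with the smallest p between concave and flat were NDUFA2, NDUFS4, NDUFB7 and ATP5MC3. NDUFA2, an accessory subunit of complex I, held 29.5, 60.5 and 22.6 CPM in flat and 20.7, 18.6 and 22.4 in concave (log2 fold change −0.87 ± 0.31 SE, adjusted p = 0.841). All 3 concave libraries lay below the flat ones, flat 3 by little. NDUFS4, an accessory subunit needed for a stable complex I, held 45.8, 66 and 32.9 CPM in flat and 34.1, 27.3 and 31.3 in concave (−0.64 ± 0.23). Concave 1 lay above flat 3. NDUFB7 held 83.1, 163 and 53.6 CPM in flat and 54.5, 49.9 and 58.3 in concave (−0.88 ± 0.33), and here concave 1 and 3 lay above flat 3. ATP5MC3 held 240, 280 and 231 CPM in flat and 176, 169 and 219 in concave (−0.41 ± 0.16), without overlap. Without flat 2 the fold changes were −0.34 for NDUFA2, −0.34 for NDUFS4, −0.33 for NDUFB7 and −0.32 for ATP5MC3.

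Between convex and flat, 78 of 81 genes were lower on the convex plate, with a median log2 fold change of −0.59 against 0.0068 over all genes, and again none passed. The share called was 0 over all genes, and DESeq2 and voom called none of the 81. Other protein-coding genes up to 1000 bases had a median of −0.51, with 727 of 883 lower. The 44 subunit genes of that length had −0.66. Over 1000 bases the medians were 0.0125 for 14559 other protein-coding genes and −0.45 for 37 subunit genes. At an unadjusted p under 0.05 were 31.4% of the 883 genes and 37 of the 44. The medians were −0.54 in complex I, −0.34 in II, −0.53 in III, −0.76 in IV and −0.67 in V. Without flat 2 they were −0.21, −0.25, −0.29, −0.36 and −0.28. At an unadjusted p under 0.05 there were 53 of 81 genes, 52 of them lower, and 2135 of all genes, and the smallest adjusted p of a subunit gene was 0.513. Without flat 2 the median was −0.27 and 12 genes were under that p, and without convex 1 and convex 3 in turn there were 21 and 22. The count over all genes was 815 without flat 2 and 5831 without flat 3. The groups did not overlap for 44 genes lower on the convex plate (54.3%), where 7.76% of all genes and 24.2% of other protein-coding genes up to 1000 bases were, and for 1 gene that was higher, NDUFA13, where 8.91% of all genes were. By length these were 22 of 44 genes up to 1000 bases and 22 of 37 longer ones. They were 17 of 36 genes in complex I, 3 of 4 in II, 7 of 10 in III, 7 of 14 in IV and 10 of 17 in V.

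COX5B, a nuclear subunit of complex IV that binds zinc, held 148, 264 and 115 CPM in flat and 93.4, 106 and 85.4 in convex. The groups did not overlap (log2 fold change −0.89 ± 0.27 SE, adjusted p = 0.513). NDUFS4 held 29.3, 30.3 and 25.8 CPM in convex, below all 3 flat libraries (−0.76 ± 0.23). COX7B, a small subunit of complex IV, held 223, 332 and 187 CPM in flat and 142, 156 and 145 in convex (−0.75 ± 0.23), also without overlap. COX6B1, which lies on the intermembrane side of complex IV, held 150, 247 and 99 CPM in flat and 86.3, 99.7 and 78.6 in convex (−0.91 ± 0.29). Convex 2 lay just above flat 3 in that gene. Without flat 2 the fold changes were −0.47 for COX5B, −0.47 for NDUFS4, −0.48 for COX7B and −0.51 for COX6B1.

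Of the catalytic and most abundant subunits, COX4I1 held 507, 950 and 405 CPM in flat, 381, 347 and 462 in concave and 352, 386 and 344 in convex. Its log2 fold change was −0.65 ± 0.28 for concave and −0.78 ± 0.28 for convex, and only the convex libraries lay apart from flat. Without flat 2 these were −0.2 and −0.34. ATP5F1B held 756, 820 and 778 CPM in flat, 577, 558 and 788 in concave and 577, 626 and 703 in convex. The differences were −0.29 ± 0.17 and −0.3 ± 0.17, and flat 2 was 1.23 times the median of the other libraries here. The concave difference was −0.47 without concave 3. SDHA held 11.1, 13.9 and 10.3 CPM in flat, 8.45, 8.54 and 10.6 in concave and 8.53, 9.23 and 9.39 in convex (−0.35 ± 0.2 and −0.38 ± 0.2, and −0.21 and −0.25 without flat 2). NDUFS1 was the exception, with 103, 94.8 and 125 CPM in flat, 95.9, 112 and 112 in concave and 103, 114 and 120 in convex. Its differences were −0.02 ± 0.15 and 0.06 ± 0.15.

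**Figure D4:**
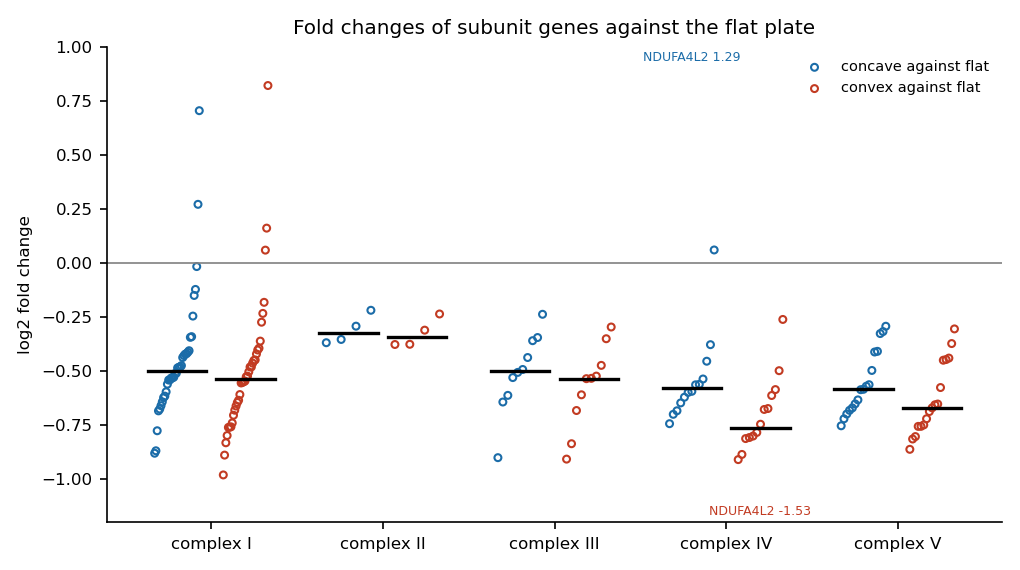
Log2 fold change of each of 81 subunit genes against flat, for concave (blue) and convex (red), by complex; bars are medians, and both comparisons share the flat libraries. Medians run from −0.32 to −0.76, no gene passed an adjusted p of 0.05, and NDUFA4L2 lies outside the axis at 1.29 and −1.53.

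In several other catalytic subunits the curved libraries numbered 3 were high. NDUFV1, which binds NADH and FMN in complex I, held 88, 137 and 78 CPM in flat, 69.7, 71.5 and 87.2 in concave and 75.7, 77.2 and 82.6 in convex. CYC1, cytochrome c1 of complex III, held 90.8, 110 and 101 CPM in flat, 63.4, 71.5 and 103 in concave and 66.6, 78.9 and 91.5 in convex. UQCRFS1, the Rieske iron-sulfur protein, held 96.4, 153 and 112 CPM, then 74.5, 77.7 and 115, then 77.6, 88.9 and 93.7 in the same order. In all 3 genes the library numbered 3 was the highest concave and the highest convex one. In complex II, SDHB held 51.9, 48 and 48 CPM in flat, 36.5, 33.7 and 50.6 in concave and 36, 37.3 and 40.6 in convex. Flat 2 did not stand out there, and the convex libraries lay below the flat ones.

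By library number, concave minus flat had a median of −0.32 on the log2 scale at number 1, −1.17 at number 2 and 0.08 at number 3, where 59 of 81 genes were higher in the concave library. Convex minus flat gave −0.43, −1.05 and −0.24, with 76, 78 and 73 of 81 genes lower. The value at number 2 rests on flat 2. By the check given under processing, the numbers did not pair concave with flat libraries (correlation 0.0211 at number 2). Both comparisons share the flat libraries and are no support for each other.

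Concave and convex differed little. Of 81 genes 70 were higher on the concave plate, with a median log2 difference of 0.08, none passed, and the share called was 0 over all genes. No subunit gene, and 65 of all genes, reached an unadjusted p under 0.05. The groups did not overlap for 2 genes higher on the concave plate, UQCRB and NDUFA5, the latter named here after its values were seen, and for 0 lower, where 1.49% and 2.08% of all genes were. UQCRB, which binds ubiquinone in complex III, held 125, 111 and 131 CPM in concave and 111, 109 and 94.5 in convex (0.22 ± 0.27 SE, adjusted p = 1). By library number the median was 0.07 at number 1 with 58 of 81 genes higher in concave, −0.14 at number 2 with 74 lower, and 0.28 at number 3 with 75 higher. The fitted median over the 81 genes was −0.0095 without concave 3. The other genes with the smallest p were NDUFA4L2 (2.82 ± 1.78), COX6B2 (0.32 ± 0.38) and UQCRHL (0.17 ± 0.2), all with overlapping groups, and the first was −1.6 without concave 1. An F test over the 3 shapes called 0 of 23075 genes, and its smallest adjusted p among subunit genes was 0.971, with 33 of 81 subunit genes and 897 of all genes at an unadjusted p under 0.05. That count of subunit genes ran from 1 without flat 2 to 62 without flat 3.

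The libraries numbered 3 differed from those numbered 1 and 2 in many genes but in few of these. With plate shape as a term, 7.59% of all genes rose and 8.68% fell in number 3, and 0 of 81 subunit genes passed. At an unadjusted p under 0.05 there were 4 of the 81 and 7145 of all genes. The 4 became 1 without concave 1 and 17 without concave 3. This split was made with earlier results of these data known, and no p-value allows for that choice. ATP5MC2 came closest (log2 difference −0.68 ± 0.21 SE, adjusted p = 0.0508). It held 104, 104 and 85.1 CPM in flat 3, concave 3 and convex 3, and 122 to 303 CPM in the other 6 libraries, all of them above those numbered 3. ATP5MC1 and ATP5MC3, which encode the same protein, held 29 to 42.1 and 190 to 231 CPM in libraries numbered 3, within the range of the others. NDUFA4L2 (−4.19 ± 1.45, adjusted p = 0.0758), SDHD (0.27 ± 0.11, adjusted p = 0.123) and CYC1 (0.32 ± 0.14, adjusted p = 0.143) followed. NDUFA4L2 was −2.5 without concave 1, and CYC1 was 0.15 without concave 3. NDUFA4L2 reached the 1 CPM minimum only through libraries numbered 1 and 2. Its difference by number thus rests on the values that admitted it, and is no support for a change in these genes. SDHD held 54, 44.9 and 45.7 CPM in number 3 and 34.6 to 46.3 CPM elsewhere. Without flat 2, 3 subunit genes passed, ATP5MC2 lower and CYC1 and UQCRFS1 higher, when 5402 genes passed in all. Without convex 3 there were 0 and 1048. DESeq2 called 2 of the 81 and 21.8% of all genes, and voom called 1 of the 81 and 16% of all genes.

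Cell type markers differed with the library number too, where 7.59% of all genes rose and 8.68% fell. All 4 pluripotency genes rose in number 3, where their summed level was 1113 to 1260 CPM against 376 to 513 CPM in numbers 1 and 2, though NANOG stayed at or under 0.475 CPM. Of 5 early neuroepithelial genes 4 fell, with sums of 856 to 1032 CPM against 1294 to 1491 CPM. Of 3 mesoderm and endoderm genes tested 2 rose, with sums over the list of 7.14 to 12 CPM against 0.788 to 1.67 CPM. In non-neural ectoderm 1 of 3 tested rose, and the sums overlapped at 281 to 342 and 178 to 404 CPM. In neurons 1 of 3 rose and 2 fell, at 31.4 to 38.4 against 37.2 to 62.6 CPM. Their part in the values of the subunit genes was not tested.

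The 13 subunits encoded by mitochondrial DNA were mostly higher on the curved plates. Between concave and flat 13 of 13 were higher (median log2 difference 0.38) and between convex and flat 12 of 13 (0.39), none past the threshold. By library number the concave median was −0.18, 0.6 and 0.59, and the convex one 0.18, 0.63 and 0.4, though the numbers did not pair concave with flat. For concave against flat the sign was opposite to that of the nuclear genes at number 2 alone, where flat 2 enters, and for convex against flat at every number. In number 3 against 1 and 2, 13 of 13 were higher, with a median of 0.55. Of these 4 rose, where 7.59% of all genes did: MT-ND2 (1.03, adjusted p = 0.00322), MT-ND1 (0.85, adjusted p = 0.0129), MT-ATP6 (0.61, adjusted p = 0.0279) and MT-ND4 (0.55, adjusted p = 0.0418). MT-ND2 was called without each library in turn. MT-ND1 lost the call without concave 3 and without convex 3, MT-ATP6 also without concave 1, flat 3 and convex 1, and MT-ND4 without any library but flat 1 or flat 2. Several of these genes overlap each other, MT-ATP8 with MT-ATP6 and MT-ND4L with MT-ND4, and poly(A) selection acts on them differently, so ratios below compare libraries and not amounts of protein.

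The summed CPM of mitochondrially encoded over nuclear subunits was lowest in flat 2 in each complex that has both. For complex I it was 7.94, 3.65 and 11.9 in flat, 9.17, 12.8 and 17.4 in concave and 12.7, 12.7 and 19.4 in convex. For complex IV it was 17.3, 8.08 and 22.7 in flat, 18.1, 24.2 and 27.9 in concave and 23.2, 22.9 and 30.2 in convex. Within each shape the library numbered 3 was the highest in both complexes. Group means for complex I were 7.82 ± 4.11 in flat, 13.1 ± 4.11 in concave and 14.9 ± 3.9 in convex (SD, n = 3), for complex III 2.95 ± 1.06, 4.81 ± 1.35 and 5.28 ± 0.863, and for complex V 2.04 ± 0.834, 3.02 ± 0.867 and 3.37 ± 0.62. All 3 convex libraries lay above all 3 flat ones in each of the 4 complexes, while concave 1 lay among the flat libraries. The gap was small in complex IV (22.9 against 22.7) and in complex V (2.895 against 2.865). These ratios were not tested.

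**Figure D5:**
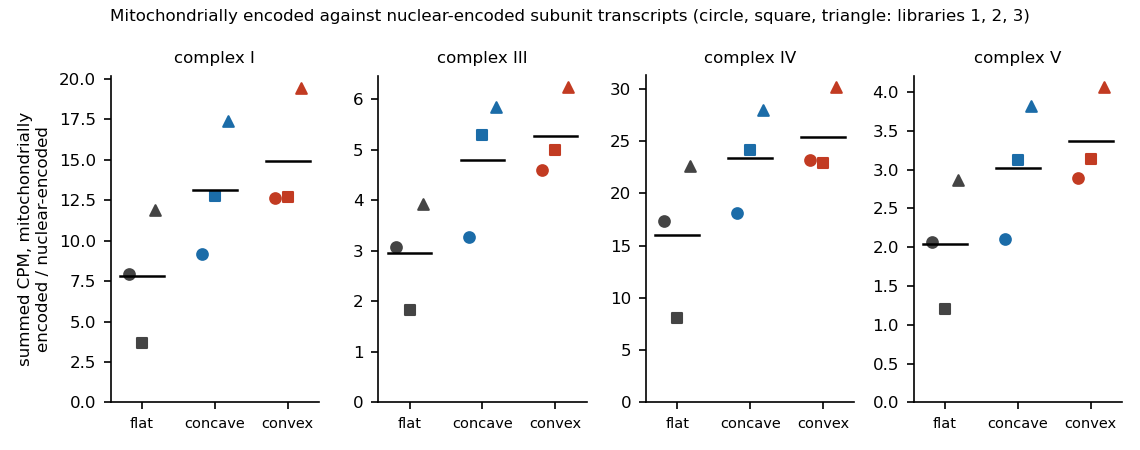
Ratio of summed CPM of mitochondrially encoded to nuclear-encoded subunits in complexes I, III, IV and V, by plate shape; circles, squares and triangles are libraries 1, 2 and 3, and bars are means. Flat 2 is the lowest of 9 in all 4 complexes, and number 3 is the highest of each shape.

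Assembly factors, which build the complexes without staying in them, were lower in 40 of 48 genes between concave and flat (median −0.28) and in 38 of 48 between convex and flat (median −0.34), with 0 called in either. By number, 4 of 48 rose and 2 fell, where 7.59% of all genes rose and 8.68% fell, so the list's shares are near or below those of all genes. Higher in number 3 were NDUFAF5, which modifies NDUFS7 (0.66, adjusted p = 0.0206), TMEM126B of the complex I assembly module (0.42, adjusted p = 0.0312), SCO1, a copper chaperone of complex IV (0.4, adjusted p = 0.0452), and COA7, another factor of complex IV (0.41, adjusted p = 0.0442). Lower were SDHAF4, which helps SDHA join SDHB (−1.44, adjusted p = 0.00377), and COA5 (−0.57, adjusted p = 0.018). SDHAF4 held 5.97, 5.67 and 4.26 CPM in libraries numbered 3 and 9.23 to 27.7 CPM elsewhere. SDHAF4 was called under every setting run. COA5 lost the call without flat 3 and without convex 3, and NDUFAF5 without concave 1, concave 3 or any convex library. TMEM126B lost it without any library but flat 2, and SCO1 and COA7 without any but flat 2 and concave 2.

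Of 11 regulators of these genes, none passed between shapes, with medians of −0.03 for concave and 0.06 for convex. NRF1 ran from 22.5 to 29 CPM over the 9 libraries, TFAM, which packages and transcribes mitochondrial DNA, from 74.5 to 131 CPM, and the coactivator PPARGC1A from 0.79 to 1.91 CPM. In number 3, where 7.59% of all genes rose, 3 of 11 did so: PPRC1 (0.82, adjusted p = 0.00965) and PPARGC1B (0.87, adjusted p = 0.0295), both coactivators of the PGC-1 family, and TFB2M, a mitochondrial transcription factor (0.46, adjusted p = 0.0337). PPRC1 lost the call without convex 3, PPARGC1B without concave 1, flat 3 or any convex library, and TFB2M without any library but flat 2. Of 10 partner genes of the chain, 9 were lower between concave and flat (median −0.25) and 9 between convex and flat (median −0.28), with 0 called. By number 1 of the 10 passed, a share near that of all genes: CYCS, the cytochrome c that carries electrons from complex III to IV, rose (0.58, adjusted p = 0.00906), from 113 to 165 CPM in numbers 1 and 2 to between 191 and 213 CPM in number 3. That call too was lost without convex 3 and without concave 3. ATP5IF1, the inhibitor of the synthase, held 52, 87.2 and 50.7 CPM in flat, 42.5, 43.4 and 52 in concave and 40.8, 45.8 and 45 in convex, with flat 2 the highest as in the synthase genes.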

How the data were processed

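RNA from 9 libraries was measured by strand-specific sequencing of poly(A)-selected, DNase-treated RNA, per the labels' protocols. The deposited table holds unnormalized counts. HISAT2, featureCounts and GRCh38 are named in the submitters' processing notes. The sources used here give neither their versions nor the annotation release and strand setting. Other columns of per-sample values numbered 0.

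The tests used edgeR 4.0.16 under R 4.3.3: filterByExpr, TMM scaling and a robust quasi-likelihood fit with 1 coefficient per shape over all 9 libraries. Tests were two-sided, with Benjamini-Hochberg adjustment over all 23075 genes in each of 5 tests, and an adjusted p under 0.05 was called. SE is the log2 fold change divided by the square root of F. The common biological coefficient of variation was 0.329. CPM use TMM-scaled library sizes, and deviations use log2 CPM with a prior count of 2. Libraries numbered 3 were compared with a term for shape. Coordinates, gene types and transcript lengths (median over principal transcripts) come from GENCODE v29, which held 58274 of 62710 genes.

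No pair of replicates agreed within sampling noise (chi-square per degree of freedom from 19.7 to 284.6). Deviations of libraries with the same number correlated, for numbers 1 to 3, at 0.379, 0.0211 and 0.338 for concave with flat. For convex with flat the values were 0.372, 0.397 and 0.62, and for the curved shapes with each other 0.579, 0.29 and 0.612. With a minimum of 0.1 in every pair, the numbers pair the last 2 comparisons but not the first. The tests between shapes above took no account of that pairing, and the fit with a replicate block is given below.

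The members and lists were chosen with earlier results of these data known. Genes named are, per complex, the 2 highest and the lowest per length, the 4 with the smallest p in each comparison where none was called, the 4 highest and 4 lowest ratios of flat 2, fixed catalytic subunits and paralogue pairs, and called genes of the other lists with PPARGC1A, NRF1, TFAM, ATP5IF1 and CYCS. NDUFA5, NDUFA7, NDUFB8 and ATP5PF fall outside that rule and were chosen after their values were seen. Alternatives were DESeq2 1.42.0, limma 3.58.1 voom, other scalings, no filter, a length correction (lowess, span 0.3), a replicate block, a member minimum of 5 CPM and each library left out. The block without flat 2, and leaving out flat 2 and flat 3 together, were added after seeing the data.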

Additional observations from a re-analysis of the deposited data

How the results depend on the processing

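No subunit gene was called between plate shapes under any setting run. With a replicate block 0 genes were called between shapes, and the smallest adjusted p of a subunit gene was 0.506 (concave, flat), 0.264 (convex, flat) and 1 (concave, convex). The block moved the count of all genes at an unadjusted p under 0.05 to 2046 and 4222 for the flat comparisons. Convex against flat gave 1 gene under DESeq2, and both flat comparisons gave 1 gene with the replicate block and flat 2 left out. The median of subunit genes between concave and flat ran from −0.71 to −0.19 with each library left out and was −0.19 with the block and flat 2 left out, and between convex and flat it ran from −0.77 to −0.27. The upper-quartile, DESeq2 and length-corrected fits kept the sign of both medians. Genes called between library numbers ran from 1048 (without convex 3) to 5402 (without flat 2), and subunit genes called from 0 to 3. Subunit genes called were 2 under DESeq2 (NDUFA4L2, ATP5MC2), 1 under voom, 1 with upper-quartile factors and 3 without a filter (with COX6C). There were 3 with the length correction (CYC1, ATP5MC2, SDHD) and 2 with flat 2 and flat 3 left out. In that order the shares of all genes called were 21.8%, 16%, 16.6%, 11.7%, 20.2% and 17%, each above the share of subunit genes. NDUFA4L2 had reached the 1 CPM minimum only through libraries numbered 1 and 2. NDUFS1 turned sign: between concave and flat it ran from −0.094 to 0.097 with each library left out. Between convex and flat it ran from −0.032 to 0.16 in that way, and was −0.21 with the length correction, −0.21 with that and the replicate block, and −0.054 with the block and flat 2 left out. Between concave and convex the ranges with each library left out were −1.6 to 4.65 for NDUFA4L2, −0.097 to 0.57 for COX6B2 and −0.0083 to 0.32 for UQCRHL. The causes were not tested. With 3 libraries a shape, the median standard error of a subunit gene's log2 fold change was 0.24.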
